A study of Mus musculus with 12 samples.

Results

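The 7 miRNAs described here are mmu-miR-9-5p, mmu-miR-9-3p, mmu-miR-128-3p, mmu-miR-137-3p, mmu-miR-138-5p, mmu-miR-7a-5p, and mmu-miR-7b-5p (the prefix, which stands for mouse, is left out below), which are known for their enrichment in neurons. They were chosen by name, with earlier results of these data already known, and each name was matched exactly to a mouse miRNA on the array. All 7 were found among the 1881 miRNAs named on the arrays, all 7 were detected on each of the 12 arrays, and all 7 were therefore among the 486 miRNAs tested. The RNA came from exosomes, the small membrane vesicles that cells release, which were captured from mouse brain with an antibody to CD11b, a surface protein of microglia and other myeloid cells. The study asked how the miRNA content of these vesicles changes with time after repetitive mild traumatic brain injury (rmTBI), and each group had 3 single-color Agilent miRNA arrays.

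The animals were adult male C57BL/6 mice. The mice of the injury groups received 4 closed-head impacts at intervals of 48 h, each driven at 5.0 m/s to displace the head by 2.5 mm, and were killed at 3, 14, or 42 days post-injury (DPI). The sham mice went through the same handling without an impact, and the labels give no time point for them. In all 4 groups the brain tissue was digested with papain, cleared of cells and debris by centrifugation and filtration, and precipitated before the capture on CD11b. The labels speak of an injured hemisphere, whereas the methods of the study speak of cortex and hippocampus of both sides. No source used here says whether the 3 arrays of a group came from separate mice or from pools, so the p-values measure the spread between these samples, which may be technical. The arrays do not show which cells released the vesicles. A larger number of vesicles that carry these miRNAs and more of this RNA per vesicle also cannot be told apart in such samples.

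A mature miRNA guides an Argonaute protein to messenger RNAs that pair with its seed, the bases close to its 5′ end, and lowers the translation and stability of these transcripts. miR-9 is made by neural progenitors and by neurons, and both arms of its hairpin are functional. miR-128 and miR-137 are abundant in forebrain neurons, where miR-128 restrains excitability and miR-137 acts on synaptic function. miR-138 limits the size of dendritic spines, and miR-7 is bound by the circular RNA Cdr1as and represses alpha-synuclein. All of them are better known from neurons than from microglia.

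The mature sequences are shown because the array separates these miRNAs by sequence alone and because the seed shows which of them share targets. They are given 5′ to 3′ as RefSeq lists them for GRCm38.p6, with the seed (bases 2 to 8) in capitals.
mmu-miR-9-5p: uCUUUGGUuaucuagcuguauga
mmu-miR-9-3p: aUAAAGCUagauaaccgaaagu
mmu-miR-128-3p: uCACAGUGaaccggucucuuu
mmu-miR-137-3p: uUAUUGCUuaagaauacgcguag
mmu-miR-138-5p: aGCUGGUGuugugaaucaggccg
mmu-miR-7a-5p: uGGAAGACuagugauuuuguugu
mmu-miR-7b-5p: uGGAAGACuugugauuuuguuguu

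The 7 miRNAs carried 6 different seeds. miR-7a-5p and miR-7b-5p shared the seed GGAAGAC and differed by 1 substitution, A10U (position 10 from the 5′ end, the base of miR-7a-5p first), and by 1 further base at the 3′ end of miR-7b-5p. How far the probes of one of them also read the other was not tested. No other mature miRNA in the table shared a seed with miR-9-5p, miR-9-3p, miR-128-3p, miR-137-3p, or miR-138-5p.

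Several of these miRNAs are made from more than 1 gene, and the array reads the sum of them. In GRCm38.p6, miR-9 comes from Mir9-1 (chr3:88215598-88215686), Mir9-3 (chr7:79505264-79505353), and Mir9-2 (chr13:83738814-83738885), each within the span of a long non-coding RNA gene (Gm3764, Mir9-3hg, and C130071C03Rik, respectively). miR-128-3p comes from Mir128-1 (chr1:128202361-128202430), within the protein-coding gene R3hdm1, and from Mir128-2 (chr9:112118636-112118711, minus strand), within Arpp21. miR-137-3p comes from Mir137 alone (chr3:118433857-118433929). miR-138-5p comes from Mir138-1 (chr9:122682876-122682974) and from Mir138-2 (chr8:94324311-94324381), the latter within Nup93. miR-7a-5p comes from Mir7-1 (chr13:58392779-58392886, minus strand), within Hnrnpk, and from Mir7-2 (chr7:78888277-78888373), and miR-7b-5p comes from Mir7b (chr17:56242988-56243098). A span covers exons and introns, which were not told apart.

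The values below are log2 scaled signals, that is, the summed signal of the probes of a miRNA divided by the 75th percentile of the array over the 230 miRNAs detected on all 12 arrays, so that 0 is the level of that percentile. The arrays differed widely in brightness. In intensity units the percentile ran from 217 to 348 on the sham arrays. It reached 402 to 620 on those of 3 DPI, 588 to 1173 on those of 14 DPI, and 1385 to 2936 on those of 42 DPI, and no spot was saturated. The 3 sham arrays and replicate 1 of 3 DPI were hybridized on slide 1 and the other 8 arrays on slide 2, so sham shared no slide with 14 or 42 DPI, and for these comparisons slide and group cannot be told apart except through the 3 DPI arrays. Replicate 1 of 14 DPI stood apart from replicates 2 and 3 of its group, and results that rest on it are given with and without it.

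At 42 DPI all 7 miRNAs lay higher than in sham, on every array. With limma and Benjamini-Hochberg adjustment over the 486 tested miRNAs, at an adjusted p under 0.05, 2 of the 7 rose against sham at 42 DPI (miR-128-3p and miR-137-3p), and 0 of 7 changed at 3 or 14 DPI. The share of all 486 miRNAs that passed was 0.00% for 3 DPI and 3.70% for 14 DPI, with 1.65% higher and 2.06% lower (4 miRNAs in all, none of the 7, with the replicate number as a block). For 42 DPI it was 34.2%, with 13.6% higher and 20.6% lower. The lowest of the 3 arrays of 42 DPI exceeded the highest sham array for 7 of 7 miRNAs, against 31.3% of all tested miRNAs. At 3 DPI this held for 1 of 7 (miR-137-3p), against 0.617% of all, and at 14 DPI for 0 of 7, against 5.14%. In time order the median log2 change of the 7 was 0.14, 0.31, and 0.59, whereas over all tested miRNAs it was 0.00, 0.00, and -0.09. Over the 230 that were, like the 7, detected on all 12 arrays it was -0.02, -0.08, and -0.02. At 42 DPI 46.9% of all tested miRNAs and 50.0% of these 230 had a change above 0. The 3 comparisons share the same sham arrays, so their values are not independent of each other. With slide as a block 0 of 7 passed at 42 DPI, also 0 of the 486. In that fit 6 of 7 had a change above 0, and the median change was 0.33 for the 7 and -0.08 for all tested. There sham was linked to 42 DPI only through the 3 DPI arrays, of which replicate 1 alone lay on slide 1, so these values lean on that array.

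**Figure D1:**
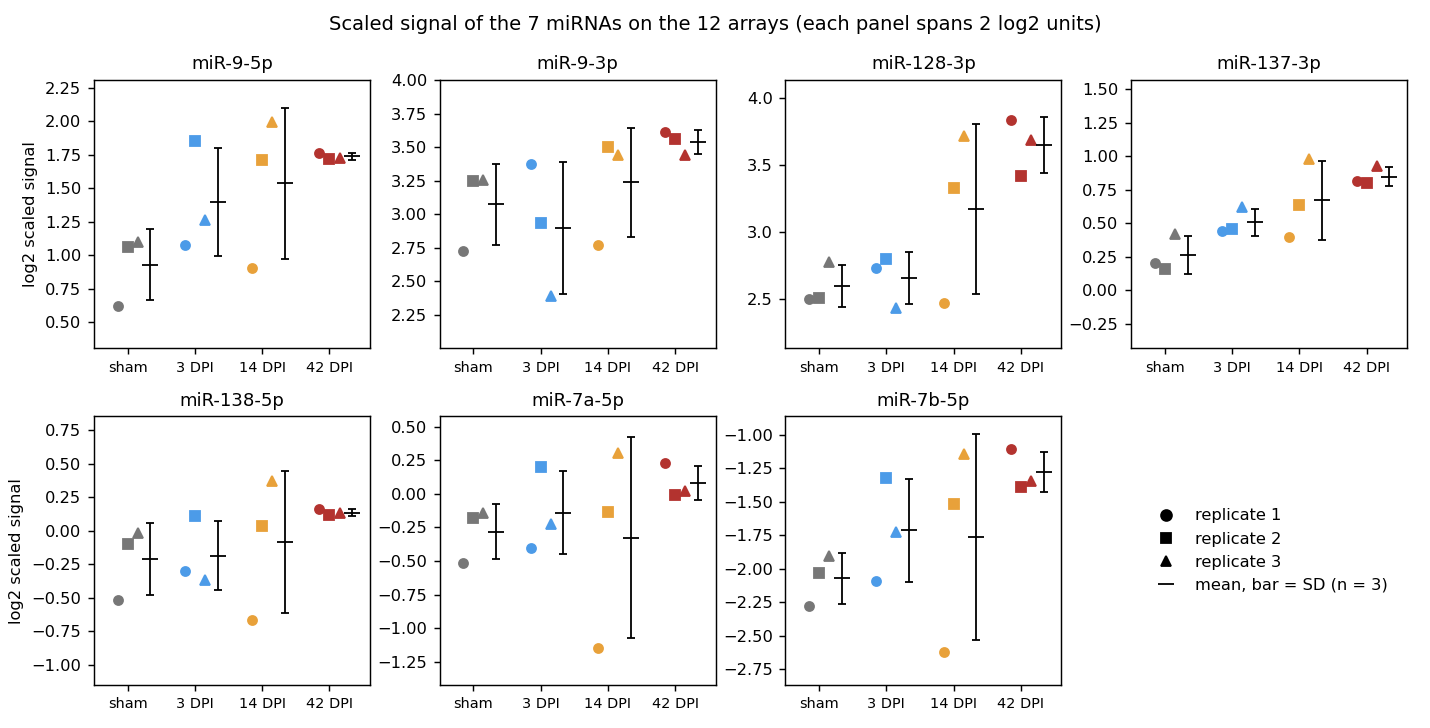
Each panel plots the log2 scaled signal of 1 miRNA (vertical axis) on the 12 arrays by group (horizontal axis), with 1 symbol per replicate and the mean with SD of 3 arrays as a bar; every panel spans the same range. In all 7 panels the 3 arrays of 42 DPI sit above the 3 sham arrays, and replicate 1 of 14 DPI sits below the other 2 of its group.

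mmu-miR-128-3p had the largest rise of the 7. Its log2 scaled signal was 2.50, 2.51, and 2.78 on the sham arrays, 2.73, 2.80, and 2.44 at 3 DPI, 2.47, 3.33, and 3.72 at 14 DPI, and 3.83, 3.42, and 3.68 at 42 DPI (replicates 1, 2, and 3 in this order, here and below). The sham and 3 DPI arrays overlapped, replicate 1 of 14 DPI lay below all sham arrays, and the arrays of 42 DPI lay above all arrays of sham and of 3 DPI. The mean rose from 2.60 ± 0.16 in sham to 3.65 ± 0.21 at 42 DPI (SD, n = 3 each), a log2 change of 1.05 (SE 0.28, 95% confidence interval 0.41 to 1.69, limma adjusted p = 0.0217), which is 2.07-fold. This change ranked 22nd from the highest among the 486.

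Against 3 DPI, miR-128-3p was higher at 42 DPI by 0.99 (SE 0.28, limma adjusted p = 0.0319), the only 1 of the 7 that passed in this comparison, where 38.3% of all tested miRNAs passed and 14.2% were higher. The same comparison on slide 2 alone, with 2 arrays of 3 DPI, gave 1.03 (limma adjusted p = 0.104), and there 0 of 486 miRNAs passed, with 201 at an unadjusted p under 0.05. The call was also lost when single arrays were left out. The limma adjusted p was 0.103, 0.0559, and 0.089 without replicate 1, 2, or 3 of 42 DPI, and 0.0554 and 0.112 without replicate 1 or 3 of 3 DPI. At 3 DPI the difference from sham was 0.06 (limma adjusted p = 1). At 14 DPI it was 0.58 (limma adjusted p = 0.289), and without replicate 1 of 14 DPI it was 0.93 (limma adjusted p = 0.0108), whereas without replicate 3 of that group it was 0.30 (limma adjusted p = 0.703).

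mmu-miR-137-3p also rose at 42 DPI, and its SE in the fit was the smallest of the 7. It read 0.20, 0.16, and 0.42 on the sham arrays, 0.44, 0.46, and 0.62 at 3 DPI, 0.40, 0.64, and 0.98 at 14 DPI, and 0.82, 0.80, and 0.93 at 42 DPI. The arrays of 3 DPI lay just above those of sham, and the arrays of 42 DPI lay above both groups. The mean went from 0.26 ± 0.14 in sham to 0.51 ± 0.10 at 3 DPI, 0.67 ± 0.29 at 14 DPI, and 0.85 ± 0.07 at 42 DPI (SD, n = 3 each). The log2 change at 42 DPI was 0.59 (SE 0.14, 95% confidence interval 0.27 to 0.90, limma adjusted p = 0.0152), which is 1.50-fold. It was 0.41 at 14 DPI (limma adjusted p = 0.137) and 0.25 at 3 DPI (limma adjusted p = 1). The 14 DPI value was 0.55 without replicate 1 of 14 DPI (limma adjusted p = 0.0154) and 0.26 without replicate 3 (limma adjusted p = 0.36). Against 3 DPI the value of 42 DPI was higher by 0.34 (limma adjusted p = 0.0782).

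The rises of miR-128-3p and miR-137-3p at 42 DPI each missed the threshold when 1 of 4 arrays was left out. The limma adjusted p was 0.0798 and 0.0517 without replicate 1 of 42 DPI, 0.0674 and 0.0549 without replicate 3 of 42 DPI, 0.0791 and 0.0592 without sham replicate 1, and 0.0703 and 0.054 without sham replicate 2, for miR-128-3p and miR-137-3p in this order. With slide as a block the changes were 1.17 and 0.49, with limma adjusted p-values of 0.245 and 0.303.

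Neither arm of the miR-9 hairpin passed the test at any time point, although both lay above sham on all arrays of 42 DPI. mmu-miR-9-5p, from the 5′ arm, read 0.62, 1.06, and 1.10 on the sham arrays and 1.08, 1.85, and 1.26 at 3 DPI. At 14 DPI it read 0.90, 1.71, and 1.99, and at 42 DPI 1.76, 1.72, and 1.73. The injury arrays overlapped with sham at 3 and 14 DPI and no longer at 42 DPI, where the 3 arrays nearly coincided. The log2 change of miR-9-5p against sham was 0.47 at 3 DPI, 0.61 at 14 DPI, and 0.81 at 42 DPI (SE 0.29 each), and the limma adjusted p at 42 DPI was 0.0605. Without replicate 1 of 14 DPI the change at 14 DPI was 0.92 (limma adjusted p = 0.0233), and without replicate 3 it was 0.38 (limma adjusted p = 0.703). Without replicate 1 of 14 DPI the unchanged difference of 0.81 at 42 DPI had a limma adjusted p of 0.0157, because this array also enters the shared spread.

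mmu-miR-9-3p, from the other arm, read 2.72, 3.25, and 3.25 on the sham arrays and 3.37, 2.94, and 2.39 at 3 DPI. It read 2.77, 3.50, and 3.45 at 14 DPI and 3.61, 3.56, and 3.44 at 42 DPI. The lowest of all its values was replicate 3 of 3 DPI. Against sham its log2 change was -0.17, 0.16, and 0.46 in time order (SE 0.28 each), and the last of these had a limma adjusted p of 0.214. Against 3 DPI, miR-9-3p was 0.64 higher at 42 DPI (limma adjusted p = 0.0981), and on slide 2 alone it was 0.87 higher (limma adjusted p = 0.0903).

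mmu-miR-138-5p was the member with the smallest change at 42 DPI. It read -0.52, -0.10, and -0.01 on the sham arrays, -0.30, 0.11, and -0.37 at 3 DPI, -0.67, 0.04, and 0.37 at 14 DPI, and 0.16, 0.11, and 0.13 at 42 DPI. The 14 DPI arrays spanned the whole range of the other groups, and the arrays of 42 DPI lay close together just above sham. The log2 change was 0.02 at 3 DPI, 0.12 at 14 DPI, and 0.34 at 42 DPI (SE 0.25 each), with a 95% confidence interval of -0.23 to 0.92 and a limma adjusted p of 0.313 at 42 DPI.

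**Figure D2:**
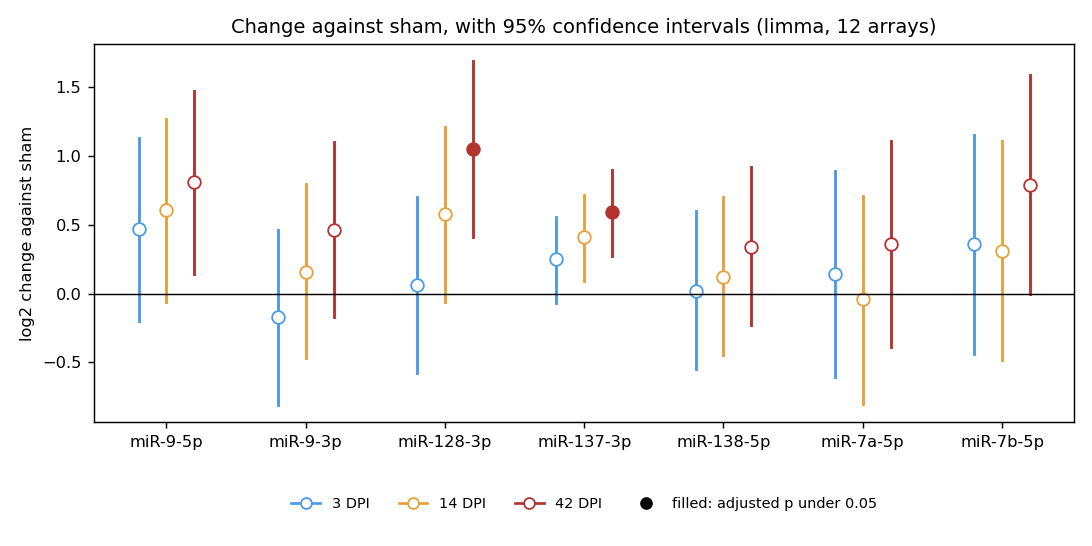
For each of the 7 miRNAs (horizontal axis) the plot gives the log2 change against sham (vertical axis) at 3, 14, and 42 DPI as a point with its 95% confidence interval, and a filled point has an adjusted p under 0.05. Filled points stand at 42 DPI for miR-128-3p (1.05) and miR-137-3p (0.59) and nowhere else, and the lowest of the 7 changes at 42 DPI is that of miR-138-5p (0.34).

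mmu-miR-7a-5p and mmu-miR-7b-5p share their seed and followed each other from array to array. miR-7a-5p read -0.52, -0.18, and -0.14 on the sham arrays, -0.40, 0.20, and -0.22 at 3 DPI, -1.15, -0.13, and 0.31 at 14 DPI, and 0.23, -0.01, and 0.02 at 42 DPI. miR-7b-5p read -2.28, -2.03, and -1.90 on the sham arrays, -2.09, -1.32, and -1.73 at 3 DPI, -2.62, -1.51, and -1.15 at 14 DPI, and -1.11, -1.39, and -1.34 at 42 DPI. For both, the lowest of all 12 values was replicate 1 of 14 DPI and the highest of the 14 DPI values was replicate 3.

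The log2 change of miR-7a-5p against sham was 0.14 at 3 DPI, -0.04 at 14 DPI, and 0.36 at 42 DPI (SE 0.33 each), the last with a limma adjusted p of 0.421. That of miR-7b-5p was 0.36 at 3 DPI, 0.31 at 14 DPI, and 0.79 at 42 DPI (SE 0.35 each), the last with a limma adjusted p of 0.106. Without replicate 1 of 14 DPI, the 14 DPI value of miR-7a-5p was 0.37 (limma adjusted p = 0.203) and that of miR-7b-5p was 0.74 (limma adjusted p = 0.0429). Without replicate 3 of 14 DPI they were -0.36 (limma adjusted p = 0.705) and 0.0038 (limma adjusted p = 1). miR-7b-5p was the dimmest of the 7 before scaling, with summed intensities of 58.7, 53.0, and 92.9 on the sham arrays, and with normexp, another background correction, its change at 42 DPI was -0.02.

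Between 42 and 14 DPI all 7 log2 differences were above 0, from 0.18 (miR-137-3p) to 0.48 (miR-7b-5p), and 0 of 7 passed the test, as did 0.00% of all tested miRNAs. Of all tested miRNAs 38.3% lay above 0, and of the 230 detected on all 12 arrays 50.4%. All arrays of both groups were on slide 2. Without replicate 1 of 14 DPI this difference was below 0 for 3 of the 7 (miR-9-5p at -0.11, miR-138-5p at -0.07, and miR-7a-5p at -0.01). Between 14 and 3 DPI, compared on slide 2 alone, the differences ran from -0.32 (miR-7a-5p) to 0.57 (miR-9-3p), and 0 of 7 passed the test, as did 0 of the 486, with 86 at an unadjusted p under 0.05.

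Ordered by group mean, miR-9-5p, miR-128-3p, miR-137-3p, and miR-138-5p ran from sham through 3 and 14 DPI to 42 DPI. miR-9-3p was lowest at 3 DPI, miR-7a-5p was lowest at 14 DPI, and miR-7b-5p was lowest in sham with 14 DPI next. Every one of the 7 was highest at 42 DPI. Of the neighbors in these orders, those compared in the fit of 12 arrays did not pass the test, and 3 and 14 DPI were compared on slide 2 alone, where 0 of 7 passed. For 4 of 7 miRNAs (miR-9-3p, miR-128-3p, miR-137-3p, and miR-138-5p) the lowest array of 42 DPI lay above the highest of 3 DPI, against 28.6% of all tested miRNAs.

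The change between groups was also read within an array, as the difference between 2 of the miRNAs, which does not depend on how arrays are scaled against each other. miR-9-5p minus miR-9-3p was -2.10, -2.19, and -2.15 on the log2 scale in sham, -2.29, -1.09, and -1.13 at 3 DPI, -1.87, -1.79, and -1.45 at 14 DPI, and -1.85, -1.84, and -1.72 at 42 DPI. Against sham this difference was 0.44 higher at 14 DPI and 0.34 higher at 42 DPI, without overlap of the arrays. In the exact permutation test over arrays, two-sided, both had p = 0.1, the smallest value that 3 against 3 arrays allow (0.133 after adjustment over 8 such tests). The 3 DPI value was 0.64 higher than sham with an exact permutation p of 0.4, and its replicate 1 lay below all sham arrays.

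miR-7a-5p minus miR-7b-5p was 1.76, 1.85, and 1.76 in sham, 1.69, 1.52, and 1.51 at 3 DPI, 1.47, 1.38, and 1.45 at 14 DPI, and 1.34, 1.38, and 1.37 at 42 DPI. The SD of this difference was 0.05 in sham, 0.10 at 3 DPI, 0.05 at 14 DPI, and 0.02 at 42 DPI, against 0.21, 0.31, 0.75, and 0.13 for miR-7a-5p alone. Its change against sham was -0.22 after 3 days, -0.36 after 14 days, and -0.43 after 42 days, in each case without overlap of the arrays and with an exact permutation p of 0.1 (0.133 after adjustment). The sign turned with normexp, to 0.14, 0.18, and 0.32 in the same order, and there the arrays overlapped in the first and second comparison.

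Both of these differences also split by slide. On the 4 arrays of slide 1, which include replicate 1 of 3 DPI, miR-9-5p minus miR-9-3p lay between -2.29 and -2.10, and on the 8 arrays of slide 2 between -1.87 and -1.09. miR-7a-5p minus miR-7b-5p lay between 1.69 and 1.85 on slide 1 and between 1.34 and 1.52 on slide 2. The part of the slide in these differences was not tested.

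**Figure D3:**
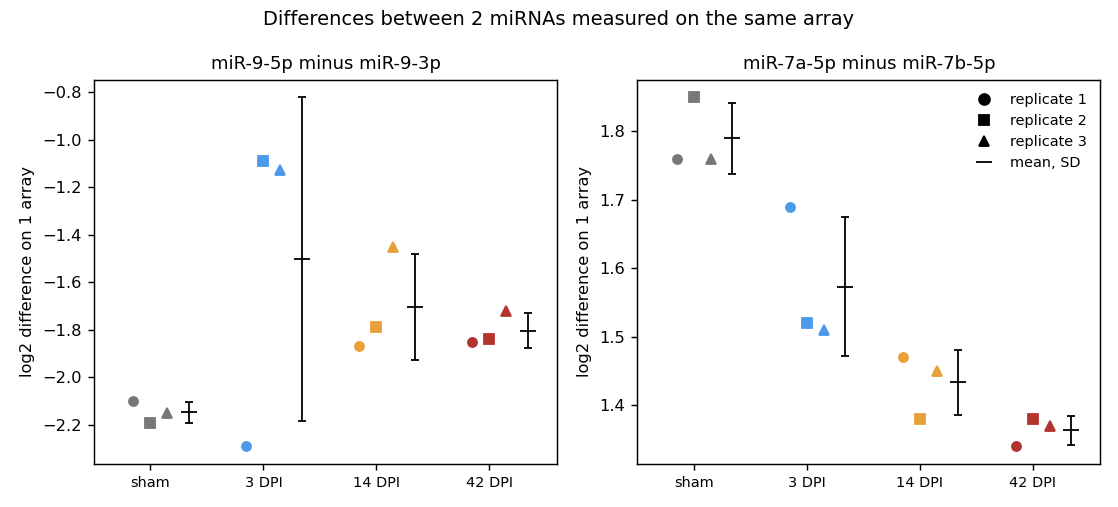
The panels plot miR-9-5p minus miR-9-3p (left) and miR-7a-5p minus miR-7b-5p (right) on each array (vertical axis, log2 difference) by group (horizontal axis), with 1 symbol per replicate and the mean with SD of 3 arrays. On the left, sham and replicate 1 of 3 DPI lie between -2.29 and -2.10 and all other arrays lie above them; on the right the values run from 1.85 in sham to 1.34 at 42 DPI.

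Before scaling, the 3 arrays of 42 DPI were brighter than all other arrays for 6 of the 7. The exception was miR-7a-5p, whose summed intensity was 1374 on replicate 2 of 42 DPI and 1379 on replicate 3 of 14 DPI. The summed intensity of miR-128-3p was 1613, 1234, and 2386 on the sham arrays and 41800, 14820, and 23880 at 42 DPI. That of miR-138-5p was 199, 203, and 345 on the sham arrays and 3279, 1499, and 2030 at 42 DPI. The arrays of 42 DPI were bright for most other miRNAs too. Without any scaling the 7 log2 changes at 42 DPI ran from 3.16 to 3.87 and all 7 passed the test, while the median change of all 486 tested miRNAs was 1.90, 408 of them were higher, and 0 were lower.

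**Figure D4:**
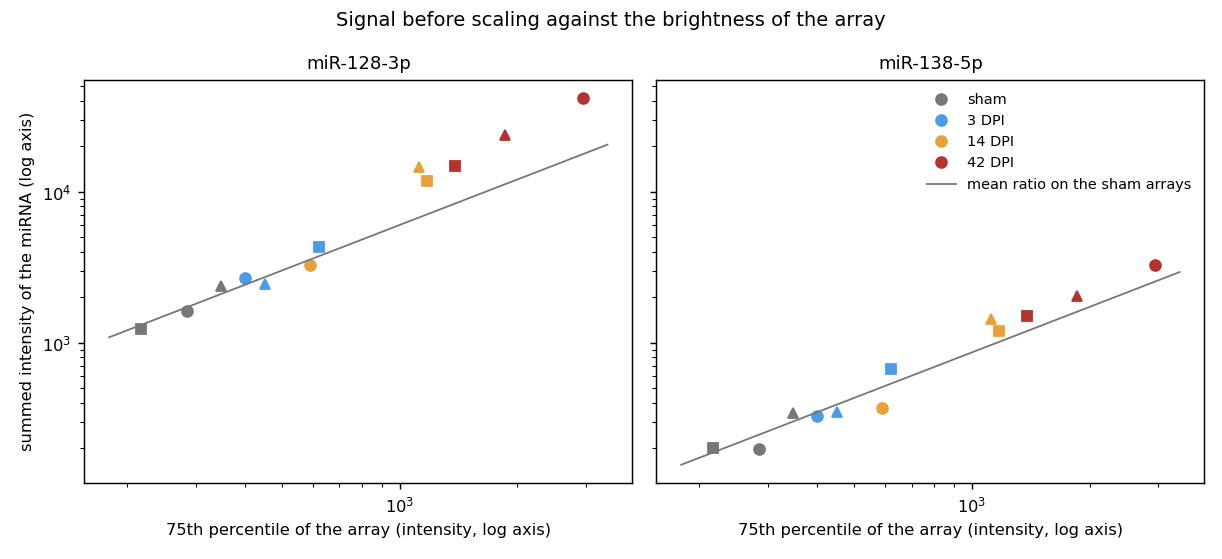
The summed intensity of miR-128-3p (left) and miR-138-5p (right) on each array (vertical axis, log axis) is plotted against the 75th percentile of the array (horizontal axis, intensity units, log axis), with colors for groups, circles, squares, and triangles for replicates 1, 2, and 3, and a line at the mean ratio of the 3 sham arrays. The 3 arrays of 42 DPI lie above the line in both panels, farther for miR-128-3p (1.05 on the log2 scale on average) than for miR-138-5p (0.34).

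The median change of the 7 also exceeded that of all tested miRNAs under the other scalings. With the 75th percentile taken over all miRNAs, the median change at 42 DPI was 1.36 for the 7 and 0.46 for all tested, and 4 of 7 passed (miR-9-5p, miR-128-3p, miR-137-3p, and miR-7b-5p). With quantile normalization it was 0.64 for the 7 and 0.00 for all tested, and the 2 that passed were miR-128-3p and miR-137-3p. In the authors' own processed table, whose scaling is not stated, it was 0.75 for the 7 and 0.44 for all tested, 4 of 7 passed, and 4 of 7 lay above that median. All 7 lay above the median of all tested miRNAs under both of the other scalings and in the data without scaling.

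Each of the 7 was read by 2 probes, printed so that between 12 and 15 spots per probe and array were kept, with a median coefficient of variation over spots of 3.4%. All spots were well above background for 164 of the 168 combinations of probe and array, and the lowest share was 86.7% (a probe of miR-7a-5p). All 14 probes were higher at 42 DPI than in sham. The 2 probes of a miRNA differed most for miR-9-3p, where their log2 changes at 42 DPI were 0.36 and 0.69. The 30 spots of miR-124-3p, another neuron-enriched miRNA, carried scan positions off the grid of their own array on each of the 9 injury arrays, while 0 of the 210 spots of the 7 miRNAs did so on any array.

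The hairpins of miR-128, miR-137, miR-138, and miR-7 release other arms, and 8 of these have probes on the array. Of the 8, 7 were well above background on none of the sham arrays, 2 (miR-128-1-5p and miR-128-2-5p) on no array at all, and 6 on all 3 arrays of 42 DPI. The latter were miR-137-5p, miR-138-1-3p, miR-138-2-3p, miR-7a-1-3p, miR-7a-2-3p, and miR-7b-3p. Of the 6 that were tested, 0 passed at 42 DPI, and 4 lay at the floor of the scale in every group. The exception with values above the floor in all groups was miR-7a-1-3p, whose mean log2 scaled signal was -4.33 in sham and -3.64 at 42 DPI (limma adjusted p = 0.14). The sham arrays were the dimmest and those of 42 DPI the brightest, and the part of brightness in these counts of detected arms was not tested.

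A further list of 24 neuron-enriched miRNAs was compared in the same fit. Of the 24, 20 were tested, and at 42 DPI 4 rose and 1 fell, against 13.6% higher and 20.6% lower among all tested miRNAs. Their median log2 change was 0.47, against -0.09 over all tested. Neither after 3 nor after 14 days did any of the 20 pass, with medians of 0.05 and 0.38. The 4 that rose were miR-384-5p (1.13, limma adjusted p = 0.016), miR-212-5p (0.98, limma adjusted p = 0.0378), miR-218-5p (0.95, limma adjusted p = 0.0286), which is known from motor neurons, and miR-129-2-3p (0.74, limma adjusted p = 0.017). miR-384-5p was well above background on 2 of the 3 sham arrays and miR-212-5p on 1. Both thus entered the test only through the injury groups, and their changes rest on sham levels that were not measured on every array. Of the 4, miR-218-5p and miR-129-2-3p were well above background on all 12 arrays. The 1 that fell was miR-433-3p (-1.09, limma adjusted p = 0.0121). miR-124-3p, the best-known neuronal miRNA, was well above background on 0 sham arrays and 0 arrays of 42 DPI and on 2 and 3 arrays of 3 and 14 DPI. Its mean was -3.22 at 3 DPI and lay at the floor of -5.06 at 42 DPI, on the spots with the scan positions given above. No test is given for miR-124-3p, because the arrays of sham and of 42 DPI did not measure it. Of the 20, 15 had a change above 0 at 42 DPI and 5 below, where 46.9% of all tested miRNAs lay above 0. These 20 thus did not all move in 1 direction. Of the 24, 8 were well above background on 0 sham arrays, and some of these, such as miR-124-3p, are among the 20. The count above 0 and the medians of the 20 therefore rest in part on sham levels that were not measured.

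Markers of other cells moved over the same groups. Each sum below adds scaled levels before log2 and so follows the brightest miRNAs of its list. The summed scaled level of the 7 miRNAs ran from 16.6 to 22.0 on the sham arrays, from 16.5 to 22.3 at 3 DPI, from 16.8 to 33.0 at 14 DPI, and from 30.0 to 34.4 at 42 DPI. That of 4 oligodendrocyte-enriched miRNAs ran from 1.81 to 2.51 on the sham arrays, from 2.14 to 3.64 at 3 DPI, from 2.17 to 4.15 at 14 DPI, and from 4.15 to 4.46 at 42 DPI, where 2 of 4 rose with a median log2 change of 1.02. These were miR-219a-5p (1.20, limma adjusted p = 0.0164) and miR-219a-2-3p (1.23, limma adjusted p = 0.00996), while miR-338-3p changed by 0.84 (limma adjusted p = 0.0728). The sums of the 7 miRNAs and of the oligodendrocyte list were thus higher on all arrays of 42 DPI than on all sham arrays. The same held for the myeloid and endothelial lists given below, whereas the erythrocyte sum was lower. The sum of the 24 further neuron-enriched miRNAs ran from 8.47 to 12.2 in sham and from 12.1 to 13.1 at 42 DPI, with overlap.

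The summed level of 6 myeloid miRNAs ran from 0.674 to 0.934 on the sham arrays, from 0.620 to 0.971 at 3 DPI, from 0.704 to 1.28 at 14 DPI, and from 1.34 to 1.50 at 42 DPI. On the sham arrays, the dimmest, most of the defining ones were not well above background in these CD11b-captured samples. This held for miR-142a-3p, miR-142a-5p, miR-146a-5p, and miR-155-5p on all 3 sham arrays and for miR-223-3p on 2 of them. miR-223-3p was well above background on all 9 injury arrays, and miR-142a-3p and miR-146a-5p on the 3 arrays of 42 DPI. miR-142a-5p was so on no array and miR-155-5p on 1. Of the 4 that were tested 3 passed as higher at 42 DPI, but miR-142a-3p and miR-146a-5p entered the test only through the arrays of 42 DPI, and no change is given for them because the sham arrays did not measure them. miR-21a-5p, which many cell types express, was well above background on all 12 arrays and rose by 0.86 at 42 DPI (limma adjusted p = 0.0493). miR-223-3p, well above background on 1 sham array, changed by -0.13 (limma adjusted p = 0.493). The mean log2 scaled signal in sham was -0.55 for miR-21a-5p and -3.83 for miR-223-3p, so the myeloid sum mostly follows miR-21a-5p. Of 4 erythrocyte miRNAs, 0 were well above background on any sham array, their summed level ran from 0.0869 to 0.129 in sham and from 0.0443 to 0.0829 at 42 DPI, and the 1 tested passed as lower, for which no change is given because the sham arrays did not measure it. Of 4 endothelial and vessel wall miRNAs, summed from 1.05 to 1.48 in sham and from 1.51 to 1.76 at 42 DPI, 1 of 4 passed as higher (miR-143-3p, also without a measured sham level), and miR-126a-3p, the 1 detected on all arrays, changed by 0.33 (limma adjusted p = 0.29). The part of these cells in the rise of the 7 miRNAs was not tested.

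To place the 7 among the other tested miRNAs, the values of each over the 12 arrays were centered on their own mean and set against those of every other miRNA by the root mean square of the log2 differences. The closest to miR-128-3p were miR-350-3p (0.118) and miR-152-3p (0.120), where the median over all tested miRNAs was 0.62. The closest to miR-137-3p were miR-125b-5p (0.102) and miR-133b-3p (0.144), against a median of 0.46. The closest to miR-9-5p were miR-222-3p (0.125) and miR-377-3p (0.131), and to miR-9-3p miR-323-3p (0.081) and miR-26b-5p (0.085). Those of miR-138-5p were miR-185-5p (0.064) and miR-31-5p (0.081). Those of miR-7a-5p were miR-15a-5p (0.138) and miR-185-5p (0.142), with miR-7b-5p in place 9 (0.172).

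Only for miR-7b-5p was another of the 7 among the closest 2, namely miR-9-5p in place 2 (0.164), after miR-337-3p (0.162) and before miR-7a-5p in place 3 (0.172). For miR-9-5p the other arm, miR-9-3p, stood in place 150. For miR-128-3p the nearest of the others was miR-7b-5p, in place 91 of the tested miRNAs. The values compared come from the same arrays and share their brightness, and the likeness is a description.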

How the data were processed

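The authors hybridized cyanine 3-labeled RNA to single-color Agilent arrays and deposited 1 scanner file per array, in which Agilent Feature Extraction 10.7.1.1, per the file headers and the submitters' processing notes, gave each spot a background-corrected intensity without normalization between arrays. The authors also deposited a table of log2 values, whose columns all have a median of -3.32 and rank the detected miRNAs much like the intensities (rank correlation between 0.94 and 0.986 within an array). It is higher for brighter, and its scaling and centering are not given in the sources used here.

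Control spots and outlier spots were left out, spots were averaged per probe, and probes were summed per miRNA. For scaling, the sums of an array were set against the 75th percentile of the 230 miRNAs that all 12 arrays detected, log2-transformed, and floored at -5.06. Detection of a miRNA required that a share above 0.5 of the spots kept for one of its probes be well above background. On the sham arrays 2 spots carried other names than on the injury arrays, and the latter were used. limma 3.58.1 in R 4.3.3 fitted the 486 miRNAs that had been detected throughout 1 group or more, with the 4 groups as the only term and 12 arrays in 1 fit. Two-sided p-values were adjusted by Benjamini-Hochberg within each of 5 comparisons. Differences within an array were compared by exact permutation tests (SciPy 1.17.1), and other steps ran in Python 3.11.15. The fit was tested on simulated data. The number of arrays limits the precision.

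The miRNAs and lists were chosen with earlier results of these data known, and the lists were written from general knowledge. The text names the 7 miRNAs, the other arms of their hairpins, at most 6 further neuron-enriched miRNAs with the largest change among those that passed in any comparison, markers detected on all arrays or at background, and the 2 miRNAs closest to each of the 7. Same-numbered arrays of sham and 14 DPI deviated together from their group means (correlations across miRNAs of 0.83, 0.44, and 0.75), which other groups did not. This pairing comes from the data alone. No 2 arrays held identical values. The alternatives were other signals, background correction, scalings, floors, filters, and detection calls, the methods' t-test, slide as a block, the replicate number as a block, fits restricted to the groups compared, leaving out each array, and the deposited table; only the groups compared with the replicate block was added after the data were seen. The authors' comparisons and their experiments outside the arrays were not used.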

Additional observations from a re-analysis of the deposited data

Results flagged for a closer look

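The changes of miR-128-3p against sham at 3 DPI (0.06) and at 42 DPI (1.05) differed from each other by 0.99 on the log2 scale, with a limma adjusted p of 0.0319 for 42 against 3 DPI. All 3 arrays of 42 DPI lay above all 3 of 3 DPI. On slide 2 alone the difference was 1.03 (limma adjusted p = 0.104). Arrays of 42 DPI were brighter than those of 3 DPI, and the part of this in the difference was not tested.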

How the results depend on the processing

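Counts below are of the 7 miRNAs that passed the limma test, changes are log2, and the cause of a change in a count was not tested unless the setting itself shows it. Against sham at 3 DPI 0 passed under every alternative run. Against sham at 14 DPI 3 passed with normexp, 7 without scaling, 1 (miR-137-3p) without a filter, and 0 to 4 when an array was left out, the 4 without replicate 1 of 14 DPI. Of all 486, 20 were higher and 357 lower with normexp, and 319 higher and 0 lower without scaling. Without a filter 1338 of 1881 were higher and 62 lower, and without replicate 1 of 14 DPI 84 of 486 were higher and 78 lower. Against sham at 42 DPI 4 passed with normexp, with the percentile taken over every miRNA, with the deposited table, with only the groups compared, and with the methods' t-test, 7 passed without scaling and 0 with slide as a block. Leaving out an array gave 0 to 4, with 0 without sham replicate 1 or 2 or replicate 1 or 3 of 42 DPI and 4 without replicate 1 of 14 DPI. Between 42 and 14 DPI 6 passed without scaling, where 165 of all 486 were higher and 1 lower, and 0 passed otherwise. Between 42 and 3 DPI, against 1, there were 2 with the brightest probe, the scanner software's detection call, only the groups compared, the replicate block, and the methods' t-test, 3 with normexp, 4 with the percentile over every miRNA, and 7 without scaling. There were 0 with double the floor, without a filter, with slide as a block, and with only the groups compared plus the replicate block, and 0 to 2 when an array was left out. The 0 came without any 1 of the 42 DPI arrays or replicate 1 or 3 of 3 DPI. In this comparison 44 of all 486 were higher and 269 lower with normexp, 184 and 79 with that percentile, and 301 and 2 without scaling. With the brightest probe they were 73 and 42, with only the groups compared 88 and 124, and with the methods' t-test 72 and 93. The software's detection call gave 94 and 110 of 576, double the floor 31 and 32, and slide as a block 32 and 62.

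Across all 486 miRNAs at 42 DPI, 66 were higher and 100 lower, against 152 and 71 with the percentile over every miRNA, 92 and 70 with quantile normalization, 44 and 389 with normexp, and 143 and 106 in the deposited table. The median change of all tested moved to 0.46, 0.00, -0.81, and 0.44 under these 4 settings, and to 1.90 without scaling. With only the groups compared 118 were higher and 144 lower, and with the methods' t-test 89 and 123. Without scaling they were 408 and 0, and without replicate 1 of 14 DPI 110 and 139.

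No call of the 7 changed direction. Changes that did not pass turned sign as follows. At 3 DPI miR-9-3p was 0.00769 with normexp, 0.621 without scaling, and 0.298 with slide as a block. miR-128-3p was -0.012 under scaling by the percentile over every miRNA and -0.0367 with quantile normalization. miR-138-5p was -0.0492 with that percentile, -0.0236 with the software's detection call, and -0.0895 with slide as a block. With slide as a block miR-7a-5p was -0.122 and miR-7b-5p -0.0198, and miR-7b-5p was -0.0374 with normexp. At 14 DPI miR-9-3p was -0.0511 with quantile normalization. miR-138-5p was -0.0458 and miR-7b-5p -0.257 with slide as a block, and miR-7b-5p was -0.212 with normexp. miR-7a-5p was 0.178 with the software's total signal, 0.239 with the percentile over all miRNAs, and 1.68 without scaling, where it passed. At 42 DPI miR-7a-5p was -0.0315 with slide as a block and miR-7b-5p -0.0199 with normexp. The difference miR-7a-5p minus miR-7b-5p turned with normexp, to 0.139, 0.179, and 0.322 against sham and to 0.143 between 42 and 14 DPI.

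Leaving out 1 array at a time also turned changes that did not pass. At 3 DPI these were miR-9-3p (range -0.409 to 0.081, above 0 without replicate 3 of 3 DPI), miR-128-3p (-0.0109 to 0.17) and miR-7a-5p (-0.0313 to 0.27), both below 0 without replicate 2 of 3 DPI, and miR-138-5p (-0.13 to 0.121, below 0 without that array or sham replicate 1). At 14 DPI they were miR-9-3p (-0.0116 to 0.398) and miR-138-5p (-0.105 to 0.413), both below 0 without sham replicate 1, the latter also without replicate 3 of 14 DPI, and miR-7a-5p (-0.361 to 0.368, above 0 without sham replicate 2 or 3 or replicate 1 of 14 DPI). Between 42 and 14 DPI, miR-9-5p (-0.114 to 0.431), miR-138-5p (-0.0691 to 0.449), and miR-7a-5p (-0.00738 to 0.721) were below 0 without replicate 1 of 14 DPI, and miR-9-5p minus miR-9-3p (-0.18 to 0.0258) was above 0 without replicate 3.

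The replicate number as a block, which pairs sham and 14 DPI by the check on deviations, left 0 of the 7 at 3 and 14 DPI and between 42 and 14 DPI, gave 3 against sham at 42 DPI (with miR-9-5p), and 2 between 42 and 3 DPI. Of all 486, 55 were then higher and 86 lower against sham at 42 DPI, and 53 and 84 between 42 and 3 DPI. For groups other than sham and 14 DPI the arrays share only a number. Dim miRNAs were hardest to see on the sham arrays, and all 7 were above background there.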
